A study of Mus musculus with 6 samples.

Results

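The 9 genes described here encode receptors that tell natural killer (NK) cells where to go: 3 receptors for sphingosine 1-phosphate (S1pr1, S1pr4 and S1pr5) and 6 chemokine receptors (Cxcr3, Cxcr4, Cxcr6, Cx3cr1, Ccr2 and Ccr7). They were taken by symbol from a table of 55291 gene names, by what they are known to do rather than by a threshold on measured values, though with earlier results of these data known. All 9 were in the table and all 9 were among the 16480 genes that had enough counts to be tested. RNA came from spleens of mice at steady state, from cells enriched on DX5 beads and sorted as CD49b+ and CD3e-, with 1 mouse per library. The 3 WT libraries (WT 1, 2 and 3) are from mice with unaltered HSF1. The 3 S303/7A libraries (5, 6 and 7) are from mice whose HSF1 has alanine in place of serines 303 and 307, a form the series calls HSF1-enhanced. HSF1 is the transcription factor of the heat shock response, and phosphorylation at these serines is known to hold it back. The sources used here name no age, sex, strain background or batch. Single-cell and chromatin accessibility data of the same series are not analysed here.

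Sphingosine 1-phosphate is abundant in blood and lymph and scarce inside lymphoid tissue, and lymphocytes follow this gradient out of the tissue through their S1P receptors. T and B cells leave through S1pr1, whereas mature NK cells rely on S1pr5. Chemokine receptors add cues for retention and homing: Cxcr4 holds cells in bone marrow, Cxcr3 brings them to inflamed tissue, Cxcr6 is typical of liver-resident cells, Ccr2 and Cx3cr1 serve exit from marrow and patrolling of vessels, and Ccr7 guides cells into lymph nodes. All 9 are receptors with 7 membrane-spanning segments that signal through G proteins.

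The coding bases below span the conserved triplet at the inner end of the third membrane segment, which takes part in G protein coupling, and show how the 2 families part. Each line runs 5′ to 3′ in the sense of the gene, from GENCODE transcripts placed on GRCm38, with the 3 codons in capitals.
S1pr1 (chr3:115712497-115712541, minus strand): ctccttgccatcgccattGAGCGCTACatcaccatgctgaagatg
S1pr4 (chr10:81499180-81499224, minus strand): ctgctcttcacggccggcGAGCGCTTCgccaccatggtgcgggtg
S1pr5 (chr9:21244709-21244753, minus strand): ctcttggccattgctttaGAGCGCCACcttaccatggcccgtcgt
Cxcr3 (chrX:101732590-101732634, minus strand): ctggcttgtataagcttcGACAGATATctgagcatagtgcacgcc
Cxcr4 (chr1:128589494-128589538, minus strand): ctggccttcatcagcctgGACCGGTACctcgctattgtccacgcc
Cxcr6 (chr9:123810320-123810364, plus strand): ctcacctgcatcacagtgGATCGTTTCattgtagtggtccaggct
Cx3cr1 (chr9:120051930-120051974, minus strand): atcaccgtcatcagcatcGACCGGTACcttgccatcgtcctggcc
Ccr2 (chr9:124106114-124106158, plus strand): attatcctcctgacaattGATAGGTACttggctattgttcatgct
Ccr7 (chr11:99145612-99145656, minus strand): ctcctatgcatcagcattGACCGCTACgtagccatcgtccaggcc

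The 3 S1P receptors open the triplet with a glutamate codon and the 6 chemokine receptors with an aspartate codon, while the arginine in the middle is common to all 9. The third position is tyrosine in S1pr1, Cxcr3, Cxcr4, Cx3cr1, Ccr2 and Ccr7, phenylalanine in S1pr4 and Cxcr6, and histidine in S1pr5. Between the coding parts of any pair of the 9 the longest run of identical bases was 16, in Cxcr6 and Ccr2. Exons of Gm48303 lie on the opposite strand of S1pr5 and exons of Gm33858 on that of Cx3cr1. In CPM, the usual count scaled to library size, these antisense genes stood at 3.70 to 10.7 and at 0 to 1.39. The sources used here do not state whether counting used strand, and without strand the reads of such a pair cannot be told apart.

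Libraries held from 43189163 to 72736406 counts, and every WT library was deeper than every S303/7A library. The 9 genes together took 0.205% to 0.227% of the counts. Of 12 NK markers 1 passed the test between genotypes, Klrb1c, which was lower in S303/7A (2256 to 2663 CPM in WT, 1640 to 1755 in S303/7A). Klrk1 (1357 to 1483 and 1848 to 2276 CPM), Cd7 (683 to 843 and 853 to 1013) and Ncr1 (2140 to 2226 and 2244 to 2530) were higher there without overlap and did not pass. That order was found in 7.64% of all genes tested, and the sums over the 12 overlapped. The T cell marker Cd3e was at 5.50 to 14.8 CPM. Summed over each list, 8 B cell, 8 T cell, 10 monocyte and 8 neutrophil markers overlapped between the genotypes. The sums of 8 basophil markers (416 to 849 CPM in WT, 255 to 356 in S303/7A), 8 platelet markers (302 to 336 and 159 to 206) and 8 erythroid markers (17.8 to 24.0 and 9.42 to 12.2) were lower in S303/7A without overlap, with 1 basophil gene (Ms4a2) and 1 platelet gene (Vwf) passing the test, and the marker genes singled out here are named after their values were seen. The erythroid sum lay mostly in Car1 (10.9 to 18.5 and 4.62 to 8.51 CPM), while Hbb-bs (0.367 to 1.31 and 0.0700 to 1.67) and Hba-a1 (0.602 to 1.40 and 0.980 to 1.33) overlapped. Also lower without overlap was the sum of 9 dendritic cell markers (578 to 766 and 300 to 495 CPM), in which Itgax, an integrin gene that NK cells express too, made up 263 to 727 CPM. In bulk RNA, fewer cells of a type and less RNA per cell cannot be told apart.

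S1pr5 was the most abundant of the 9 transcripts per exon length and Ccr7 the least. On a scale of CPM per kilobase of exon, S1pr5 stood at 286 ± 33.5 (SD over the 6 libraries), above all but 0.721% of 16081 genes ranked in the same way. S1pr4 (121 ± 8.59), Cxcr3 (114 ± 19.4) and Ccr2 (96.6 ± 6.34) came next, followed by S1pr1 (55.8 ± 15.1). Cxcr6 (29.4 ± 13.7), Cx3cr1 (16.2 ± 5.67) and Cxcr4 (15.4 ± 11.1) lay lower, and Ccr7 stood at 2.85 ± 1.04, with 52.5% of genes above it. The lowest S1pr5 library (249) exceeded the highest S1pr4 library (133), the lowest Ccr2 library (92.8) exceeded the highest S1pr1 library (75.7), and the lowest Cxcr4 library (5.45) exceeded the highest Ccr7 library (4.29). Other neighbours in this order had overlapping ranges and are not separated beyond their spread, although S1pr1 exceeded Cxcr6 within each of the 6 libraries. With the longest transcript as the length, Ccr2 came out at 114 CPM per kilobase, beside Cxcr3.

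**Figure D1:**
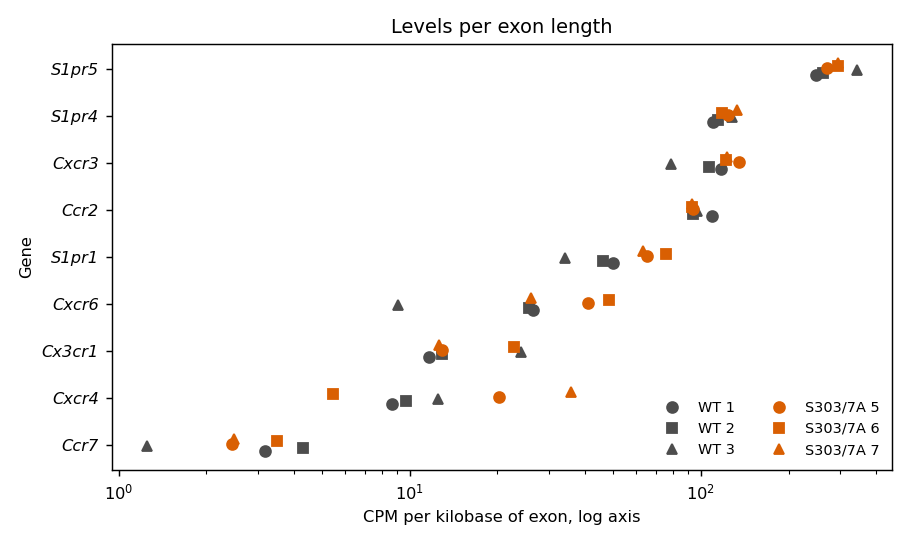
Level of each receptor transcript per exon length in the 6 libraries (log axis, CPM per kilobase of exon; 1 point per library, WT grey, S303/7A orange). S1pr5 lies apart at the top, from 249 to 344, and Ccr7 at the bottom, from 1.25 to 4.29.

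None of the 9 receptors passed the test between the genotypes. The threshold was a Benjamini-Hochberg adjusted p of 0.05 over all 16480 genes in edgeR's quasi-likelihood test, which 0.364% of them passed. At an unadjusted p under 0.05 there was 1 of the 9, S1pr1, against 9.68% of all genes tested. The log2 folds of S303/7A over WT were above 0 for 6 receptors and below 0 for 3, with a median of 0.09, beside a median of 0.01 over all genes. For S1pr1 and Cxcr3 every S303/7A library exceeded every WT library, as for 7.64% of all genes, and for Ccr2 every S303/7A library was below every WT library, as for 8.37%. The lowest adjusted p among the 9 was 0.202, for S1pr1. DESeq2 with its default filtering called 1 of the 9, again S1pr1, and 2.17% of its genes. On the genes that edgeR tested, an alternative added after seeing the data, DESeq2 called the same 1 and 2.65% of genes. Limma-voom called 0 of the 9 and 0.231% of genes, and edgeR without its low-count filter 0 of the 9 and 0.502%.

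**Figure D2:**
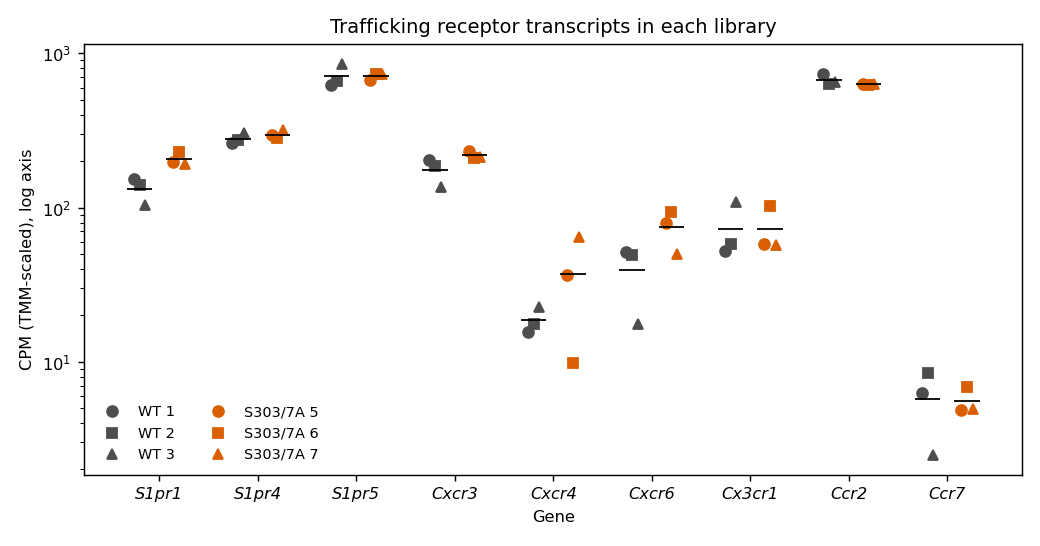
Each receptor transcript in the 6 libraries (CPM on a log axis, 1 point per library, black line the group mean of 3). The S1pr1 groups do not overlap, whereas Cxcr4 spans 9.86 to 64.6 CPM within S303/7A alone.

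S1pr1 showed the clearest separation of the S1P receptors. Libraries WT 1, 2 and 3 held it at 152, 141 and 104 CPM, and libraries S303/7A 5, 6 and 7 at 199, 231 and 193 CPM. All 3 S303/7A libraries lay above the highest WT library, and WT 3 was the lowest of all. The fitted log2 fold was 0.65 ± 0.15 (SE; 95% interval 0.30 to 1.00), a fold of 1.57 (unadjusted p 0.00302, adjusted p 0.202 by edgeR). DESeq2 gave a fold of the same size and passed, with its default filtering (adjusted p 0.00466) and on the genes that edgeR tested (0.00243). Without the filter on low counts the edgeR value moved to 0.0501, and over the remaining 11 alternatives adjusted p lay between 0.174 and 0.494. The gene lies at chr3:115710433-115715072 (GRCm38), with no gene that passed the test within 5 Mb of it, which was also so for the other 8 receptors.

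S1pr4 and S1pr5 differed little between the genotypes. S1pr4, an S1P receptor found mainly on blood cells, was at 262, 273 and 306 CPM in WT and at 295, 282 and 316 CPM in S303/7A. S1pr5, the receptor that mature NK cells use for exit, was at 623, 659 and 859 CPM in WT and at 675, 737 and 737 CPM in S303/7A. The ranges overlapped for both, and WT 3 had the highest S1pr5 of the 6 libraries. Log2 folds were 0.09 (95% interval -0.10 to 0.28) for S1pr4 and 0.01 (-0.28 to 0.29) for S1pr5 (adjusted p 0.826 and 0.994). The interval of S1pr5 thus spans folds from 0.823 to 1.23.

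Among the CXC receptors, Cxcr3 was higher in S303/7A without overlap, by a narrow margin. It was at 204, 185 and 136 CPM in WT and at 233, 211 and 214 CPM in S303/7A. The log2 fold was 0.33 ± 0.14 (SE; 95% interval -0.01 to 0.66) (adjusted p 0.532), and it was 0.17 without WT 3, the library with the lowest value.

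Cxcr6 was at 51.3, 49.4 and 17.6 CPM in WT and at 79.3, 93.4 and 50.3 CPM in S303/7A. S303/7A 7 fell between WT 1 and WT 2, so the groups overlapped, and WT 3 stood far below the rest. The log2 fold was 0.91 ± 0.41 (SE; 95% interval -0.04 to 1.87) (adjusted p 0.539), and 0.56 without WT 3. Cxcr6 is also a marker of type 1 innate lymphoid cells (ILC1), relatives of NK cells that the CD49b gate may admit in part. The other 7 ILC1 markers summed to 192, 206 and 132 CPM in WT and to 259, 228 and 171 CPM in S303/7A, so the lowest sum was again in WT 3 and the 2 highest sums again in S303/7A 5 and 6. Itga1, the gene of the ILC1 marker CD49a, went the other way, at 22.7, 18.6 and 29.0 CPM in WT and at 21.3, 21.5 and 9.14 CPM in S303/7A, highest in WT 3. The part of these cells in the Cxcr6 values was not tested.

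Cxcr4 varied more within S303/7A than between the genotypes. It was at 15.7, 17.6 and 22.7 CPM in WT and at 36.5, 9.86 and 64.6 CPM in S303/7A. S303/7A 6 was the lowest of the 6 libraries and S303/7A 7 the highest, a range of 6.55-fold inside 1 genotype against 1.45-fold inside WT. The log2 fold was 0.99 ± 0.57 (SE; 95% interval -0.34 to 2.32) (adjusted p 0.669). It dropped to 0.31 without S303/7A 7 and reached 1.44 without S303/7A 6, with an adjusted p of 0.187 in that fit. Klf2, a transcription factor that promotes lymphocyte exit, was also highest in S303/7A 7, at 120 CPM against 30.2 to 39.3 in the other 5 libraries. Its log2 fold of 0.88 ± 0.50 (SE) became -0.03 without that library. Other genes of the lists were likewise highest in S303/7A 7, and those given here were named after their values were seen. These were Klf3 (503 CPM against 161 to 321), Rap1b (1120 against 292 to 625), Prex1 (1202 against 308 to 713), Rac1 (48.8 against 20.7 to 24.5) and Sgpp1 (32.0 against 10.3 to 13.5). How often this library was highest over all genes tested was not counted, and a link of Klf2 with Cxcr4 was not tested.

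The promoter of Cxcr4 was the one of 7 available member promoters with a match to GAANNTTC, the core of 2 facing units of a heat shock element. These RefSeq sequences (GRCm38.p6) cover 250 bases before to 50 after the start site, and none was at hand for S1pr1 or Ccr7. The match ends at the base before the annotated start and is in capitals in the 80 bases shown, from chr1:128592300-128592379 on the minus strand.
Cxcr4: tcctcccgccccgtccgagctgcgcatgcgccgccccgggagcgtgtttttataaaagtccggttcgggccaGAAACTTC

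The same letters, which read alike on both strands, occur in 7.86% of 32851 promoters in that table. CCACCC, the core of Krueppel-like factor sites, was found on either strand in the promoters of S1pr5, S1pr4 and Cx3cr1 and in 31.5% of the table, and the T-box letters AGGTGTGA in no member and in 1.28%. These matches describe letters and do not show binding.

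Of the remaining chemokine receptors, Cx3cr1 split the libraries across genotypes. This receptor for membrane-bound fractalkine was at 52.4, 58.2 and 108 CPM in WT and at 58.0, 103 and 57.0 CPM in S303/7A. WT 3 and S303/7A 6 were high and the other 4 libraries lay within 52.4 to 58.2. The log2 fold was -0.01 ± 0.34 (SE; 95% interval -0.80 to 0.78) (adjusted p 0.997).

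Ccr2, a receptor for monocyte chemoattractant chemokines that also mobilises NK cells from marrow, varied least among the libraries. It was at 739, 635 and 653 CPM in WT and at 634, 628 and 631 CPM in S303/7A. The S303/7A libraries were all lower, but the highest of them and the lowest WT library were 634 and 635 CPM. The log2 fold was -0.10 ± 0.07 (SE; 95% interval -0.26 to 0.06) (adjusted p 0.748). Of 10 monocyte and macrophage markers, the sum overlapped between the genotypes (203 to 272 and 165 to 245 CPM), with Csf1r at 1.44 to 9.01 CPM. Most of that sum was Ly6c2 (162 to 214 and 130 to 201 CPM). Lyz2 (21.6 to 23.5 and 12.0 to 19.9 CPM) and Cd14 (0.381 to 0.993 and 0 to 0.321) were lower in S303/7A without overlap. That order was found in 8.37% of all genes tested, and the rest of the list overlapped. Ly6c2, Lyz2 and Cd14 were named after their values were seen. The part of monocytes in the Ccr2 values was not tested.

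Ccr7 rested on 182 to 462 counts per library. It was at 6.28, 8.49 and 2.48 CPM in WT and at 4.83, 6.89 and 4.90 CPM in S303/7A. The highest and the lowest value were both in WT. The log2 fold of -0.05 ± 0.43 (SE) had a 95% interval from -1.06 to 0.96 and the adjusted p was 0.987. B cells and T cells carry Ccr7 as well. The 8 B cell markers summed to 63.7, 135 and 24.0 CPM in WT and to 94.3, 41.2 and 80.5 in S303/7A, highest in WT 2 and lowest in WT 3, as Ccr7 was, although the order of the S303/7A libraries differed. The 8 T cell markers summed to 92.7, 96.5 and 54.9 CPM in WT and to 108, 89.7 and 78.5 in S303/7A. That sum was also lowest in WT 3 but highest in S303/7A 5, where Ccr7 was at 4.83 CPM. The part of B and T cells in the Ccr7 values was not tested.

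**Figure D3:**
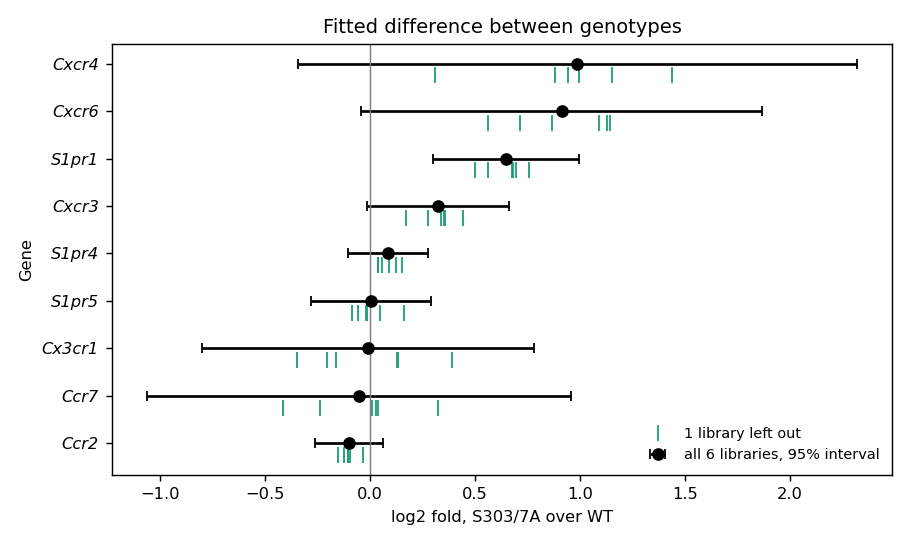
Log2 fold of S303/7A over WT for each receptor (points, with 95% intervals from the fit to 6 libraries) and the folds when 1 library was left out (green ticks). The interval of S1pr1 lies above 0, from 0.30 to 1.00, and those of the other 8 include 0.

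One WT library stood at an extreme for 6 of the 9 receptors. How often it did so over all genes tested was not counted, and it was also the deepest library (72736406 counts). WT 3 had the lowest S1pr1, Cxcr3, Cxcr6 and Ccr7 and the highest S1pr5 and Cx3cr1 of the 6. In log2 CPM, WT 3 was 0.66 below the gene's mean over the 6 libraries for S1pr1, 0.51 below for Cxcr3, 1.52 below for Cxcr6 and 1.09 below for Ccr7, and it was 0.27 above for S1pr5 and 0.64 above for Cx3cr1. It was also highest for Zeb2, a factor of terminal NK maturation (307 CPM against 194 to 253), and lowest for Tcf7, a factor of less mature cells (91.7 CPM against 114 to 176). Other factors were mixed. WT 3 was lowest for Runx3 (165 CPM against 183 to 298) and Zfp683 (3.07 against 5.52 to 11.3). It was highest for Prdm1 (185 against 99.1 to 143), Id2, Foxo3 and Irf2, and at neither end for Tbx21 (1308) and Eomes (148). Of these factors, all but Zeb2, Tbx21 and Eomes were named after their values were seen. The maturity of the cells was not tested. S303/7A 6 had the highest S1pr1 and Cxcr6 but also the second highest Cx3cr1, so it does not mirror WT 3.

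**Figure D4:**
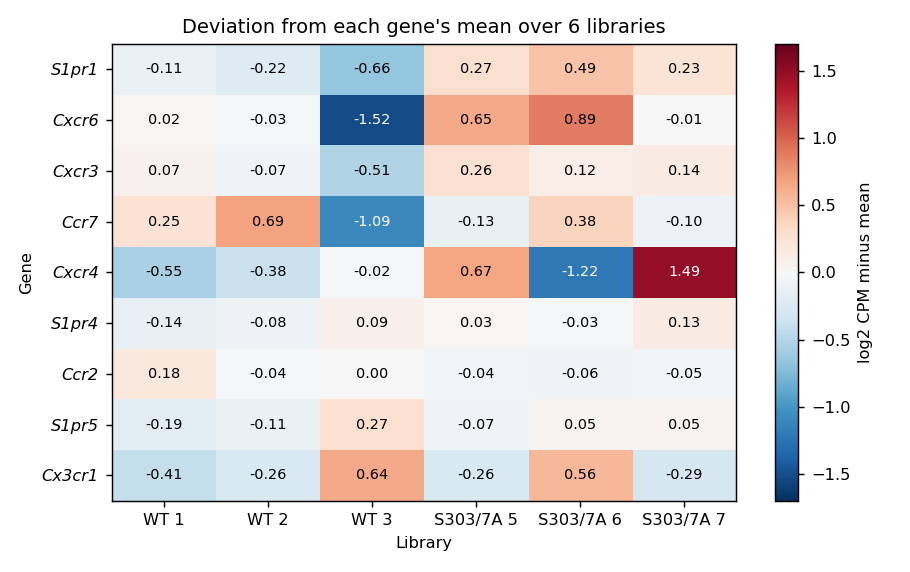
Deviation of each receptor from its own mean over the 6 libraries (log2 CPM; red above, blue below). WT 3 is low for the 4 genes at the top and high for the 2 at the bottom, and Cxcr4 runs from -1.22 in S303/7A 6 to 1.49 in S303/7A 7.

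The genes whose pattern over the 6 libraries was most like that of a receptor were read off by Pearson's r of log2 CPM, ranking 9962 tested genes with a mean of at least 2. These are the top 2 of a long ranking over few points that share library and depth, and they are given as a description. S1pr1 was most like Akr1e1 (r = 0.992) and Skap1 (0.989). Akr1e1, an aldo-keto reductase gene, was at 4.39, 2.85 and 0.871 CPM in WT and at 19.1, 23.9 and 15.6 CPM in S303/7A, with a log2 fold of 2.86 (adjusted p 0.115). Cxcr3 was most like Icosl (0.994) and Tapbpl (0.990), and Cxcr6 most like Ncapd2 (0.990) and Nrros (0.984). For Cxcr4 the genes were Dgkz (0.992) and Pptc7 (0.986), and for Cx3cr1 they were 1500004A13Rik (0.994) and Mrpl20 (0.989). S1pr4 was followed by Med6 (0.996) and Fam91a1 (0.992), and S1pr5 by Rpl36 (0.977) and Pogk (0.976). Ccr2 was followed by Top3b (0.994) and Twf1 (0.978), and Ccr7 by Klhl42 (0.981) and Zfp446 (0.976).

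Other chemokine receptors had enough counts in 14 of 19 cases, and 0 passed in edgeR. At an unadjusted p under 0.05 there were 3, against 9.68% of all genes tested. These were Ccr1, Ccr3 and Cxcr2, the last 2 named after their values were seen. All 3 were lower in S303/7A without overlap, an order found in 8.37% of all genes tested. Ccr1, a receptor of inflammatory myeloid cells and NK cells, was at 21.5, 24.7 and 19.6 CPM in WT and at 8.56, 8.28 and 12.3 CPM in S303/7A. Its log2 fold was -1.18 ± 0.20 (SE) (adjusted p 0.0895). Ccr3, the eotaxin receptor of eosinophils and basophils, was at 9.77, 18.0 and 12.5 CPM and at 5.88, 5.22 and 5.46 CPM (log2 fold -1.28). Cxcr2, a receptor of neutrophils, was at 41.4, 51.8 and 45.4 CPM and at 28.3, 20.8 and 28.5 CPM (log2 fold -0.84). DESeq2 called all 3 lower (adjusted p of 2.92e-06, 6.2e-05 and 0.000152), as did edgeR without the low-count filter (0.0158, 0.0300 and 0.0262). Over all genes these fits called 2.17% and 0.502%. Markers of basophils moved with these 3 receptors, at 416, 849 and 567 CPM in WT and at 302, 255 and 356 CPM in S303/7A when summed. The platelet, dendritic cell and erythroid sums were lower without overlap in the same libraries. The 8 neutrophil markers summed to 10.1, 35.9 and 13.6 CPM in WT and to 4.48, 11.3 and 10.7 CPM in S303/7A, overlapping, with most of the sum in Mpo (1.93 to 21.7 and 2.64 to 4.41) and Retnlg (1.65 to 12.3 and 1.49 to 5.20), while S100a8 was at 0.0933 to 1.46 and Ly6g at 0 to 0.0233 CPM over the 6 libraries. The part of any of these cell types in the values of Ccr1, Ccr3 and Cxcr2 was not tested. Xcr1, the XCL1 receptor of cross-presenting dendritic cells, stood at 0.150 to 1.62 CPM.

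Receptors that position lymphocytes by other cues had 14 of 16 genes tested, and 0 passed in edgeR. An unadjusted p under 0.05 was found for 4, against 9.68% of all genes tested. C5ar1, the receptor for complement C5a, came closest among all the lists, at 24.5, 28.1 and 24.9 CPM in WT and at 10.3, 11.5 and 14.3 CPM in S303/7A (log2 fold -1.10, adjusted p 0.0552). It was named after its values were seen, and it passed with library totals in place of scaled ones (0.0491), with robust estimation (0.0438), without the low-count filter (0.00965) and in DESeq2 (1.62e-07). The other 3 were C3ar1, the receptor for complement C3a, Cnr2, a cannabinoid receptor of leukocytes, and Gpr183, with C3ar1 and Cnr2 named after their values were seen, and all 4 were lower without overlap, an order found in 8.37% of all genes tested. The basophil, platelet and dendritic cell sums were lower in the same libraries, and their part in these 4 genes was not tested. DESeq2 called C5ar1 and C3ar1, and 2.17% of all its genes. Gpr183, the oxysterol receptor that places cells in lymphoid tissue, was at 53.4, 73.7 and 62.6 CPM in WT and at 52.5, 46.5 and 51.9 CPM in S303/7A. It was lower without overlap, with a log2 fold of -0.33 (adjusted p 0.487).

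**Figure D5:**
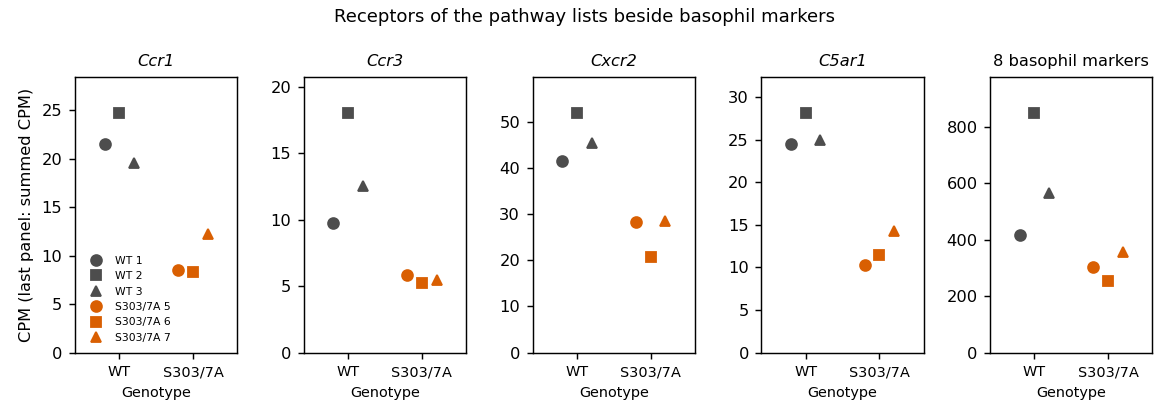
CPM of Ccr1, Ccr3, Cxcr2 and C5ar1 and, at the right, the summed CPM of 8 basophil markers (1 point per library, axes from 0). In each panel the 3 S303/7A libraries lie below the 3 WT libraries, an order that the platelet, dendritic cell and erythroid sums (not drawn) share.

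The genes that make, move and break down S1P had 11 of 12 members tested with S1pr2 and S1pr3, and 0 passed in edgeR. An unadjusted p under 0.05 was found for 1, against 9.68% of all genes tested. S1pr2, which unlike S1pr1 restrains migration, was at 65.7, 58.6 and 69.3 CPM in WT and at 70.9, 76.3 and 74.1 CPM in S303/7A (log2 fold 0.19, adjusted p 0.579). It was higher without overlap, an order found in 7.64% of all genes tested. Sgpl1, the lyase that degrades S1P, was at 249 to 272 CPM in WT and 265 to 317 CPM in S303/7A. Mfsd2b, the S1P exporter of red cells and platelets, fell outside the naming rule. It was at 27.0 to 32.8 CPM and at 13.6 to 24.3 CPM, beside platelet markers that were also lower, and DESeq2 alone called it (0.0300). The part of platelets in that difference was not tested.

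Of 22 genes for G protein coupling and receptor shutdown, all were tested and 0 passed in edgeR, with 6 at an unadjusted p under 0.05, 1 higher (Gnb1) and 5 lower (Arrb1, Rgs10, Rgs18, Rgs2 and Grk3), all named after their values were seen. Over all 16480 genes the count was 1595, with 693 higher and 902 lower. The platelet marker sum was also lower in S303/7A, and its part in such genes as Rgs18, a brake on G proteins in platelets, was not tested. DESeq2 called 2, Arrb1 and Rgs10, both lower, and on the genes that edgeR tested also Rgs18 (lower) and Gnb1 (higher). Over all genes these 2 fits called 2.17% and 2.65%. Gnai2, the inhibitory G protein subunit through which most of these receptors signal, was at 744, 716 and 495 CPM in WT and at 671, 616 and 767 CPM in S303/7A. Cd69, whose product binds S1pr1 and pulls it from the surface, was at 34.4, 40.2 and 16.7 CPM in WT and at 55.8, 39.8 and 54.1 CPM in S303/7A, overlapping at S303/7A 6 (log2 fold 0.71, adjusted p 0.527). S1pr1 and Cd69 transcripts were thus both lowest in WT 3. The kinase gene Grk2, the arrestin gene Arrb2 and the G protein brake Rgs1 had log2 folds of 0.08, -0.10 and -0.40, with adjusted p of 0.931, 0.906 and 0.670.

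Of 25 motility genes 0 passed in edgeR, while 3 had an unadjusted p under 0.05, against 9.68% of all genes tested. These 3 were Elmo1, Pik3r5 and Vav1, named after their values were seen. Log2 folds were above 0 for 20 of the 25 motility genes, with a median of 0.04. Over all genes they were above 0 for 8521 of 16480, with a median of 0.01. DESeq2 called 0 of the 25, against 2.17% of all its genes. Dock2, the Rac activator of lymphocyte migration, was at 1292 to 1351 CPM in WT and 1318 to 1387 CPM in S303/7A. Of 18 adhesion and homing genes 0 passed and 5 had an unadjusted p under 0.05, against the same 9.68%. Cd44, Selplg and Cd226 were higher, and Itgax and Fut7 lower, all 5 named after their values were seen. The median log2 fold over the 18 was 0.01. DESeq2 called 1 of them, Itgax, and 2.17% of all its genes. Itgal and Itga4, which encode integrin chains, had log2 folds of -0.05 and 0.01.

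Of 16 transcription factors of trafficking genes 0 passed in edgeR, against 0.364% of all genes tested. At an unadjusted p under 0.05 there were 0, against 9.68%, and DESeq2 called 0, against 2.17% of all its genes. Tbx21 (T-bet), which drives S1pr5 in NK cells, was at 1234, 1262 and 1308 CPM in WT and at 1253, 1530 and 1400 CPM in S303/7A. Foxo1, which drives Klf2 and Ccr7 in lymphocytes, was at 38.6, 30.4 and 33.0 CPM in WT and at 39.4, 33.7 and 51.9 CPM in S303/7A. Eomes was at 476, 316 and 148 CPM in WT and at 180, 140 and 717 CPM in S303/7A, highest in S303/7A 7 and lowest in S303/7A 6, as Cxcr4 was. In WT the order was the opposite, with Cxcr4 rising from 15.7 to 17.6 and 22.7 CPM as Eomes fell. Without S303/7A 7 the log2 fold of Eomes went from 0.14 to -0.97.

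Ligands of the 9 receptors had few counts. Of 12 ligand genes 3 had enough counts to be tested. Of these 0 passed the edgeR test, against 0.364% of all genes tested, and 0 had an unadjusted p under 0.05, against 9.68%. DESeq2 called 0, against 2.17% of all its genes. Cxcl10, a ligand of Cxcr3, was at 1.14 to 3.79 CPM in WT and 2.23 to 4.69 CPM in S303/7A, and Cxcl16, the ligand of Cxcr6, at 0.190 to 1.22 and 0.487 to 2.38 CPM. Cxcl11, Ccl7, Ccl8, Ccl12 and Ccl19 had 0 counts in all 6 libraries, and Cxcl12 had 3 counts over the WT and 2 over the S303/7A libraries.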

How the data were processed

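Bulk RNA-seq libraries (SMART-seq HT kit) of sorted spleen NK cells were compared between 3 WT and 3 S303/7A mice. Per the submitters' processing notes, the tools were Trimmomatic, STAR, featureCounts and DESeq2 and the build GRCm38 (mm10); no version or annotation release is given there. The authors deposited raw counts per gene and a normalized signal per gene. The deposited signal equals the counts divided by 1 factor per library (0.817 to 1.40): multiplying back gave whole counts within 0.05 for 100% of values, so the raw counts alone were tested. No row named anything but a gene.

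Counts were fitted in edgeR 4.0.16 (R 4.3.3) after filterByExpr (minimum count 10, minimum total 15) with TMM factors and the quasi-likelihood test, in all 16480 genes together, without covariates. Standard errors come from the fitted variance and intervals are 95%. CPM are TMM-scaled; log2 CPM used an offset of 0.5 counts. Alternatives were RLE factors, library totals, no low-count filter, DESeq2 1.42.0 with its default filtering in place of filterByExpr, limma-voom (limma 3.58.1), robust estimation, thinning to equal totals, and leaving out each library. DESeq2 after filterByExpr was added after seeing the data. The test was checked on simulated counts. Exon lengths and positions came from GENCODE M21 and promoters from RefSeq.

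The receptors and gene lists were chosen with earlier results of these data known. Named were the 9 receptors, up to 4 genes per list that passed, 18 genes whatever their values, and the 2 genes most like each receptor; others were named after their values were seen. Some genes are not reported here. A protein comparison was replaced by coding bases, since no protein table was used here.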

Additional observations from a re-analysis of the deposited data

How the results depend on the processing

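No paired analysis was possible because the genotypes share no replicate number. Over 14 alternatives to each receptor's log2 fold, 110 values kept the direction and the side of the threshold and 14 changed direction. The S1pr1 call in DESeq2 (log2 fold 0.65), with its default filtering or after the low-count filter, made 1 receptor called instead of 0. Direction changed for receptors near 0: Ccr7 (0.16 in limma-voom, -0.41 to 0.33 with 1 library left out), S1pr5 (-0.0229 with library totals, -0.0008 without the low-count filter, -0.0861 to 0.16 with 1 library left out) and Cx3cr1 (-0.35 to 0.39). Among other named genes it changed for Eomes (-0.0647 in limma-voom, -0.97 to 0.58 with 1 library left out), Itga4 (-0.0155 with library totals, -0.0181 in limma-voom, -0.21 to 0.16), Klf2 (-0.0302 to 1.20), Zeb2 (-0.18 to 0.16), Gnai2 (-0.0927 to 0.17), Grk2 (-0.0842 to 0.21), Arrb2 (-0.26 to 0.0038) and Cxcl16 (-0.22 to 1.10). Genes called over the table went from 60 to 171 without the low-count filter, 434 in DESeq2, 437 in DESeq2 after the low-count filter (added after seeing the data), 38 in limma-voom and 5 (without WT 2) to 57 (without S303/7A 6) with 1 library left out. Calls in lists went from 0 to 3 chemokine receptors without the filter and 3 in DESeq2; to 1 S1P gene and 2 coupling genes in DESeq2, or 4 coupling genes in DESeq2 after the filter, which otherwise gave the DESeq2 counts; to 1 adhesion gene, Itgax, without the filter, in DESeq2 and without S303/7A 6 (0 to 1 with 1 library left out); and to 1 positioning receptor with library totals and with robust estimation and 2 without the filter and in DESeq2. Ccr2 per length moved from 96.6 to 114 CPM per kilobase with the longest transcript. The causes were not tested. With 3 libraries per genotype, the 95% intervals of Cxcr4, Cxcr6, Cx3cr1 and Ccr7 leave folds well away from 1 undetected.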
